A study of Mus musculus with 6 samples.

Results

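The genes described here are 33 endothelial and endocardial genes, chosen by name, and all 33 were found by symbol among the 48709 genes of the deposited table for embryonic mouse hearts. Double knockout hearts (3 libraries) came from C57BL6/J embryos with homozygous floxed alleles of RBPMS and of RBPMS2 plus a Cre given as "XML Cre pos" in the labels. Control hearts (3 libraries) came from littermates with the same floxed alleles and no Cre listed. The series describes the deletion as specific to cardiomyocytes, so the floxed genes of endothelial cells were not the stated target, and no group carried Cre alone. The promoter of the Cre, the embryonic stage, the number of hearts per library and the litter of each library are not stated in the sources used here. RNA was sequenced from polyA libraries of heart tissue. Values are normalised read counts as deposited, and fold changes are differences of mean log2(value + 1), double knockout minus control.

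Endothelial cells line the blood vessels, and the endocardium is the endothelium that lines the heart chambers. In the embryonic heart the endocardium gives rise to mesenchyme of the valve cushions and, with the sinus venosus, supplies cells of the coronary vessels. These cells are set up by VEGF, angiopoietin, Notch and apelin signals and by transcription factors of the ETS, SOXF, GATA and KLF families. They hold together through VE-cadherin, claudin and PECAM junctions. The members cover these roles: 10 genes of the cell surface and junctions, 5 receptors of VEGF, angiopoietin and BMP or TGF-beta ligands, 6 genes of peptide and guidance signalling, 3 genes of secreted proteins and a nitric oxide enzyme, and 9 transcription factors.

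Deposited values summed to 19770390 to 20215282 per library, from an estimated 18760280 to 21993982 reads. The libraries carried the targeted change: Rbpms was at 670 to 721 in double knockout libraries, against 3551 to 3956 in control libraries, and Rbpms2 at 1257 to 1676 against 2444 to 2716. Libraries numbered 3 in both genotypes had a male pattern, with Xist at 20 and 6, and the other 4 libraries a female one. The labelled tissue was checked by 13 cardiomyocyte markers, none at 0, which summed to 631786 to 704819 in double knockout libraries and to 748417 to 776688 in control libraries. Most of that difference lay in Myh6, a myosin heavy chain, which averaged 79505 ± 9261 in double knockout libraries and 139844 ± 8691 in control libraries (SD, n = 3 each). The genotypes did not overlap for 4 of the 13 markers, Myh6, Myl7, Tnnt2 and Nkx2-5. All 4 were lower in double knockout libraries, beside 10.6% of all genes tested. The genotypes overlapped for the others, Myh7, Myl2, Myl3 and Tnni3 among them. Of the 13, 10 had a log2 fold change below 0 and 3 above. In bulk tissue, fewer cells of a type and less RNA per cell cannot be told apart.

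Most of the 33 endothelial and endocardial genes did not differ between double knockout and control hearts beyond the spread between libraries. Of the 33 members, 2 rose at an adjusted p under 0.05 (Emcn and Fli1) and 0 fell, by limma with Benjamini-Hochberg adjustment over 26747 genes. Among all genes tested 4.86% were called, 2.31% as higher and 2.55% as lower, and among the 12182 protein-coding genes with means between the lowest and the highest member 8.25% were called. The share of members called, 6.06%, was near that background. The median log2 fold change of the members was 0.04, beside 0.02 over all genes tested, and single members ran between -0.26 and 0.63. Of the 33, 24 lay above 0 and 9 below, beside 52.8% of all genes above 0. At an unadjusted p under 0.05 there were 9 members, beside 18.7% of all genes.

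The intervals show, gene by gene, how finely the fold changes were resolved given the spread among these libraries. They were taken with each library's trend with GC content left in the values. For 26 of the 33 members the 95% interval of the fold change lay inside 1.5-fold in either direction, and for 31 inside 2-fold. The exceptions at 2-fold were Cldn5 and Sox17, with normalised counts below 100 in every library. Standard errors of the log2 fold change ran between 0.08 and 0.28. The greatest was that of Apln, the least abundant member.

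**Figure D1:**
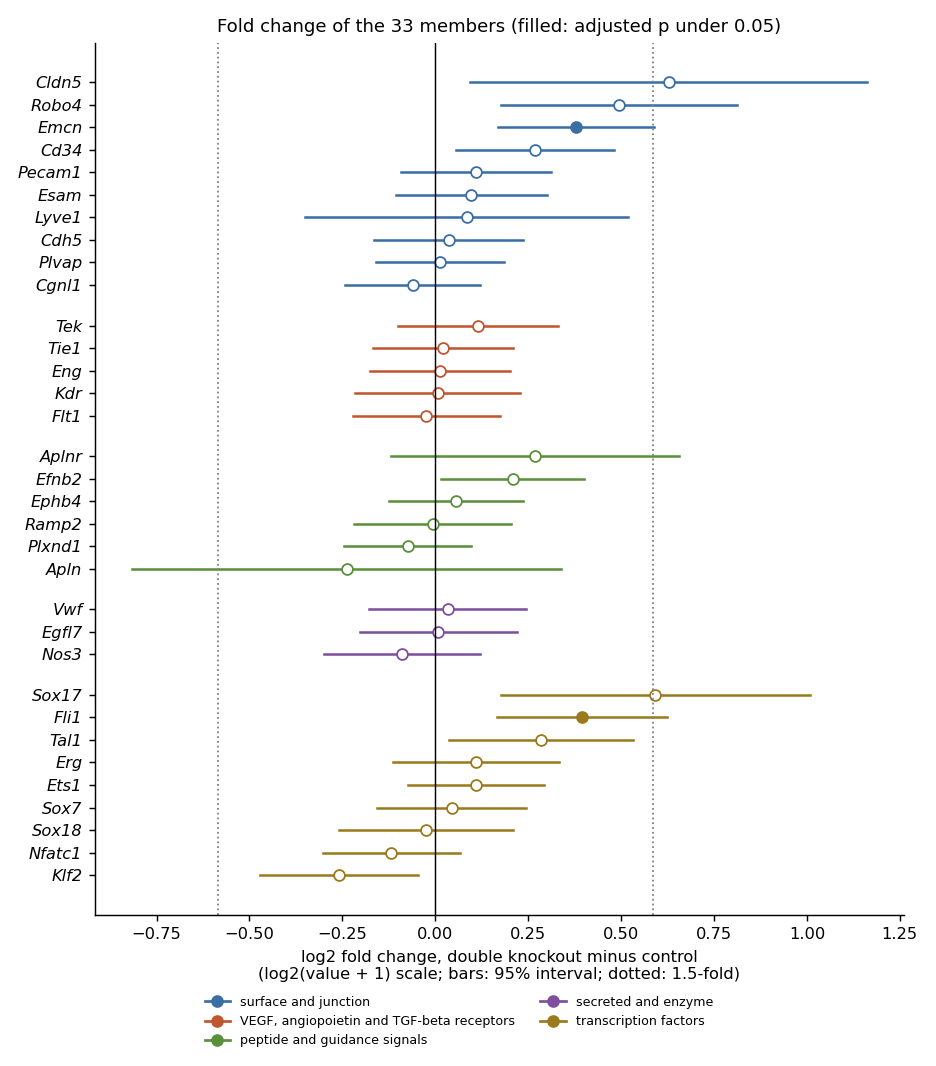
Log2 fold change (double knockout minus control) of the 33 members with 95% intervals, grouped by role; filled points passed the adjusted threshold and dotted lines mark 1.5-fold. Only Emcn and Fli1 are filled, and most intervals cross 0.

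Levels per kilobase of exon gave the members an order of abundance. Plvap, a protein of the diaphragms of endothelial caveolae and fenestrae, was highest with 1568 normalised counts per kilobase over all 6 libraries. The guidance receptor Plxnd1 (1155 per kilobase), the BMP co-receptor Eng (1151 per kilobase), VE-cadherin Cdh5 (1092 per kilobase) and the junction linker Cgnl1 (1030 per kilobase) followed, and these neighbours overlapped in their libraries. At the other end were Robo4 (29.8 per kilobase), the tight junction gene Cldn5 (24.2 per kilobase), the hyaluronan receptor Lyve1 (22.7 per kilobase), the apelin receptor Aplnr (22.3 per kilobase), Sox17 (12.8 per kilobase) and the peptide Apln (10.4 per kilobase). All 33 members passed the filter on low values in both genotypes, and 5 had a mean under 100 over the 6 libraries.

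**Figure D2:**
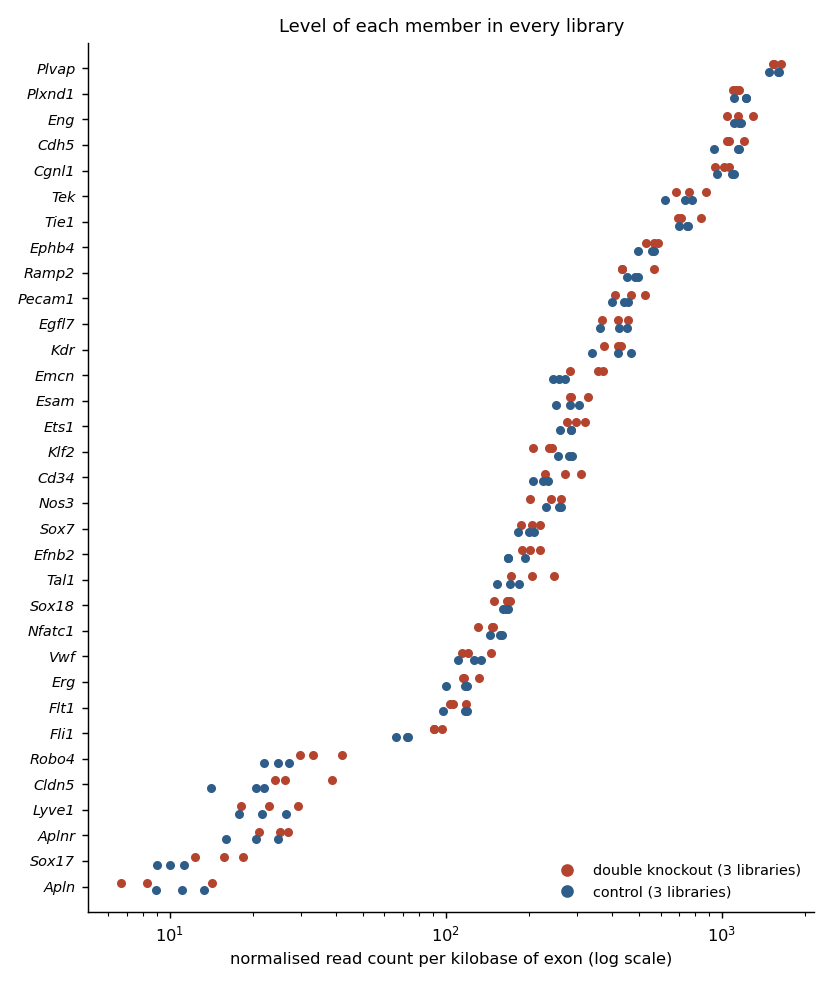
Normalised read count per kilobase of exon (log axis) of each member in the 3 double knockout and the 3 control libraries, ordered by the mean over all libraries. Points of the genotypes overlap for 27 of the members and stand apart for Emcn, Fli1, Robo4, Sox17, Cldn5 and Klf2.

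Most genes of junctions and of the cell surface did not differ beyond the spread between libraries. Cdh5, VE-cadherin of the adherens junction, was at 4460, 5064 and 4399 in double knockout libraries 1 to 3, against 4868, 4817 and 3928 in control libraries 1 to 3. Its log2 fold change was 0.04 ± 0.10 (SE, adjusted p = 0.877), and the genotypes overlapped. Pecam1, the adhesion molecule CD31, was at 2551, 3288 and 2922 in double knockout libraries, against 2844, 2751 and 2500 in control libraries. In both genes double knockout 2 was the highest and control 3 the lowest library, and for Pecam1 the log2 difference of 0.11 had an adjusted p of 0.575. Esam, another junction adhesion molecule, averaged 853 ± 71.9 in double knockout libraries and 798 ± 77.4 in control libraries (SD, n = 3 each; limma adjusted p = 0.629). Plvap averaged 3130 ± 118 in double knockout libraries and 3103 ± 135.5 in control libraries (SD, n = 3 each; limma adjusted p = 0.952), a fold change whose interval ran between 0.90 and 1.14. Cgnl1, which ties junctions to the cytoskeleton, averaged 7906 ± 444.5 in double knockout libraries and 8251 ± 642 in control libraries (SD, n = 3 each), a log2 fold change of -0.06 with a 95% interval of -0.24 to 0.12. Lyve1, a marker of lymphatic endothelium that some macrophages share, was at 53, 67 and 85 in double knockout libraries, against 52, 63 and 77 in control libraries.

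Emcn, endomucin, a sialomucin of capillary, venous and endocardial endothelium, was the surface gene that rose. It lies on chromosome 3 (137341067 to 137432185, plus strand, mm10). Its normalised counts were 1530, 1930 and 2005 in double knockout libraries, against 1465, 1388 and 1324 in control libraries. The genotypes did not overlap, though double knockout 1 stood near the controls. The log2 fold change was 0.38 ± 0.10 (SE, adjusted p = 0.0335), with a 95% interval of 0.17 to 0.59, a fold of 1.30. The call was lost without double knockout 2 (adjusted p = 0.0951), double knockout 3 (0.202), control 1 (0.109), control 2 (0.0850) or control 3 (0.204), without both libraries numbered 3 (0.542), and without the robust moderation of variances (0.143), and it held without double knockout 1 (0.00696). Emcn had the lowest GC content of the members, 40.7%, and its log2 fold change was 0.26 (adjusted p = 0.0431) after each library's trend with GC content and transcript length was taken out.

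The remaining surface genes that lay higher did not pass. Cd34, a sialomucin of endothelium and of blood progenitors and stromal cells, was at 1666, 2252 and 1975 in double knockout libraries, against 1705, 1646 and 1511 in control libraries (log2 fold change 0.27, adjusted p = 0.147). Robo4, a guidance receptor particular to endothelium in adult tissues, was at 157, 224 and 175 in double knockout libraries, against 131, 144 and 116 in control libraries. Its log2 fold change of 0.49 ± 0.15 (SE) had an adjusted p of 0.0686, and of 0.0367 after that trend was taken out. Cldn5, claudin 5 of endothelial tight junctions, was at 34, 55 and 37 in double knockout libraries, against 31, 29 and 20 in control libraries (log2 fold change 0.63 ± 0.26, SE, adjusted p = 0.182). In Robo4 and Cldn5 the genotypes did not overlap and double knockout 2 was highest.

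**Figure D3:**
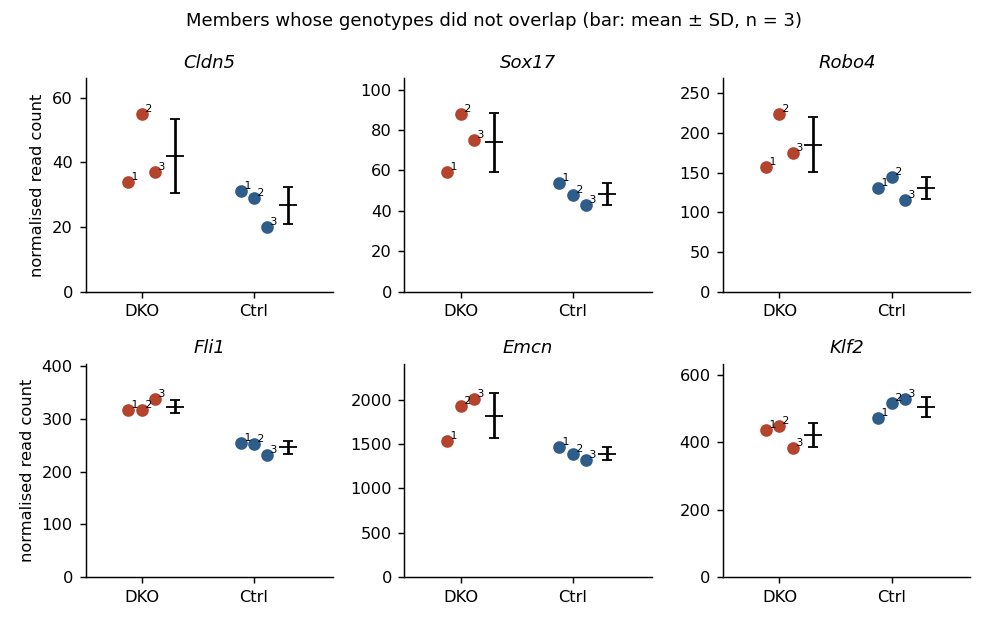
Normalised read counts of the 6 members whose genotypes did not overlap, by library (number beside each point), with mean ± SD (n = 3 libraries). Cldn5, Sox17, Robo4, Fli1 and Emcn lie higher and Klf2 lower in the double knockout libraries; Emcn and Fli1 passed the adjusted threshold.

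Receptors of the main vascular growth factors did not differ beyond the spread between libraries. Kdr, VEGF receptor 2, was at 3393, 3886 and 3785 in double knockout libraries, against 4226, 3811 and 3059 in control libraries. Its log2 fold change was 0.01 with a 95% interval of -0.22 to 0.23 (adjusted p = 0.988). Flt1, VEGF receptor 1, which also acts as a decoy for VEGF, was at 1405, 1595 and 1431 in double knockout libraries, against 1610, 1588 and 1319 in control libraries (adjusted p = 0.916). Tie1, an orphan receptor that modulates angiopoietin signalling, averaged 3675 ± 394 in double knockout libraries and 3611 ± 140.4 in control libraries (SD, n = 3 each; limma adjusted p = 0.924). Tek, the angiopoietin receptor Tie2, averaged 3644 ± 448 in double knockout libraries and 3361 ± 393 in control libraries (SD, n = 3 each; limma adjusted p = 0.573). Eng, endoglin, averaged 4690.0 ± 514 in double knockout libraries and 4631 ± 131 in control libraries (SD, n = 3 each; limma adjusted p = 0.955). In all 5 receptors the genotypes overlapped.

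Promoter windows were read for members on both sides of the threshold, because ETS factors, whose core motif is GGAA, bind many endothelial promoters and the ETS genes Fli1, Erg and Ets1 are members. RefSeq windows (GRCm38.p6, 250 bases before to 50 after a start site, written along the gene's strand) were matched by symbol for 18 members. They are shown for Emcn, which rose, for Robo4, which had the next lowest adjusted p among members with a window, and for the receptors Kdr and Tie1, whose levels were nearly equal. Capitals mark GGAA or its reverse complement TTCC.
Emcn (chr3:137340828-137341127, plus strand): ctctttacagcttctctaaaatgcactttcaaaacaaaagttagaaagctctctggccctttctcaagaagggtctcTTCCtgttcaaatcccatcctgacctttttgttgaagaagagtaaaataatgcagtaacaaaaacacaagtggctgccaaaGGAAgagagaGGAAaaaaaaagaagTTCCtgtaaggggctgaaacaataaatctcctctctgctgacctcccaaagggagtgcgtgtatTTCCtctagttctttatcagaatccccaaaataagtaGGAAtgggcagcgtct
Robo4 (chr9:37401722-37402021, plus strand): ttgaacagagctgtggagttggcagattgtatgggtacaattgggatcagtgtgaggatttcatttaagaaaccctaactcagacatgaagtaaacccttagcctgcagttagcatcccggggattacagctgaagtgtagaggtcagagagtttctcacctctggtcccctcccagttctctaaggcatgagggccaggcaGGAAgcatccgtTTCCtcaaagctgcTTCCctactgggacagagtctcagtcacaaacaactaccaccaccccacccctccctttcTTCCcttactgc
Kdr (chr5:75978406-75978705, minus strand): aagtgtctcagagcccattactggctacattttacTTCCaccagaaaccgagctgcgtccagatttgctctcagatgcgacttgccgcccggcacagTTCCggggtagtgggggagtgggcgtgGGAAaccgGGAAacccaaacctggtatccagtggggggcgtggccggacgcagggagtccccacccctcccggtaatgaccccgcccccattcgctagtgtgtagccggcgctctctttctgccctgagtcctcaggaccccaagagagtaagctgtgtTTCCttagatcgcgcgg
Tie1 (chr4:118489800-118490099, minus strand): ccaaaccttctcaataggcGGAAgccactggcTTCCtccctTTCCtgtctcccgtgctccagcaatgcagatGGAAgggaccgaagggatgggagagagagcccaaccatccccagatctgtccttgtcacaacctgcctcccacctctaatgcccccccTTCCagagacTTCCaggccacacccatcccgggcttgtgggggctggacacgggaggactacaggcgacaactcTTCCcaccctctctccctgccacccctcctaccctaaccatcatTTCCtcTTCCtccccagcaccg
The Emcn window held 6 such cores, that of Robo4 4, that of Kdr 5 and that of Tie1 9, so the number of cores did not set Emcn apart from the receptors. On either strand, GGAA stood in 17 of the 18 member windows (94.4%) and in 95.9% of 20557 windows taken at 1 per gene, with medians of 4 and 3 per window. The longer CCGGAA stood in 1 member window, that of Kdr (5.56%), against 17.8% of all windows. The SOX motif AACAAT, which contains ACAAT, stood in 2 member windows (11.1%), against 9.98% of all, and ACAAT in 4 (22.2%) against 29.5%. CACCC, a KLF motif, stood in 14 member windows (77.8%) against 58.1%. Member windows were also richer in GC, with a median of 60.5% against 55.0% in all windows, and its part in these shares was not tested. The GATA motifs AGATAA and TGATAA stood in 2 (11.1%) and 1 (5.56%) member windows, against 10.2% and 8.02%, and the E-box CANNTG in 13 (72.2%) against 70.0%. A match is a run of letters and no measured binding site.

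Among genes of peptide and guidance signalling, 0 of 6 passed in either direction and the genotypes overlapped in all 6. Efnb2, the arterial ephrin ligand, was at 1297, 1382 and 1509 in double knockout libraries, against 1152, 1326 and 1149 in control libraries (log2 fold change 0.21, adjusted p = 0.223). Ephb4, its venous receptor, averaged 2610.0 ± 133 in double knockout libraries and 2512 ± 173 in control libraries (SD, n = 3 each; limma adjusted p = 0.767). Arterial ligand and venous receptor thus both overlapped between genotypes. Plxnd1, a semaphorin receptor needed for outflow tract patterning in mice, was at 8399, 8201 and 8034 in double knockout libraries, against 8941, 8903 and 8105 in control libraries (log2 fold change -0.07, adjusted p = 0.668). Ramp2, which pairs with the receptor Calcrl to bind adrenomedullin, averaged 1582 ± 254 in double knockout libraries and 1577 ± 68.6 in control libraries (SD, n = 3 each; limma adjusted p = 0.984). Apln was at 26, 45 and 21 in double knockout libraries, against 35, 42 and 28 in control libraries. Its receptor Aplnr, a gene of sinus venosus and venous endothelium, was at 78, 99 and 93 in double knockout libraries, against 59, 91 and 76 in control libraries. For Apln the 95% interval of the log2 fold change, -0.82 to 0.34, leaves a change in either direction unresolved at this depth.

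Secreted and enzyme genes were level. Vwf, von Willebrand factor, averaged 2040 ± 265 in double knockout libraries and 1988 ± 195.5 in control libraries (SD, n = 3 each; limma adjusted p = 0.891). Egfl7, a secreted endothelial factor whose gene hosts miR-126, averaged 1490.3 ± 163 in double knockout libraries and 1482 ± 165 in control libraries (SD, n = 3 each; limma adjusted p = 0.977). Nos3, endothelial nitric oxide synthase, was at 995, 1084 and 835 in double knockout libraries, against 1079, 1060 and 950 in control libraries (log2 fold change -0.09, adjusted p = 0.670). Antisense or opposite-strand genes share exon bases with Nos3, Cd34, Eng, Egfl7, Ephb4 and Sox17, and Vps25 shares 1103 bases with Ramp2 on the same strand. The kit was stranded, but the sources used here do not state the strand setting of the counting, so reads of the overlaps may be misassigned.

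Of 9 transcription factors, 1 rose and 0 fell. Fli1, an ETS factor of endothelial and blood cells, lies on chromosome 9 (32422204 to 32542861, minus strand, mm10). Its normalised counts were 317, 316 and 337 in double knockout libraries, against 254, 252 and 231 in control libraries. The genotypes stood apart, with little spread inside each. The log2 fold change was 0.40 ± 0.11 (SE, adjusted p = 0.0413), a fold of 1.32 with a 95% interval of 1.12 to 1.54. The call was lost with any 1 of the 6 libraries left out: without double knockout 1 (adjusted p = 0.0663), 2 (0.0615) or 3 (0.135), and without control 1 (0.135), 2 (0.0741) or 3 (0.214). It was also lost without both libraries numbered 3 (0.422), without the robust moderation (0.0686) and with the female or male pattern as a covariate (0.0595). Fli1 was also GC-poor, at 44.5% beside a median of 49.8% over protein-coding genes tested. It still passed after each library's trend with GC content and transcript length was taken out.

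The other ETS members did not move with Fli1 past the threshold. Erg was at 401, 456 and 402 in double knockout libraries, against 414, 407 and 347 in control libraries (adjusted p = 0.616). Ets1 averaged 2521 ± 191 in double knockout libraries and 2334 ± 121 in control libraries (SD, n = 3 each; limma adjusted p = 0.530). Tal1, a basic helix-loop-helix factor of blood and endothelium that the endocardium needs in mice, was at 902, 752 and 1082 in double knockout libraries, against 670, 749 and 807 in control libraries (log2 fold change 0.29, adjusted p = 0.192). Double knockout 2, the highest library for most members, was the lowest of its genotype for Tal1.

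Markers of blood cells were read beside these values, since Fli1, Tal1, Ets1, Erg and Cd34 are also expressed by some blood cells or their progenitors. Of 11 macrophage and leukocyte markers, 2 rose and 0 fell, beside 2.31% and 2.55% of all genes tested. Of the 11, 10 had a log2 fold change above 0 and 1 below, with a median of 0.49, beside 52.8% of all genes above 0. These markers summed to 1422 to 1770 in double knockout libraries, against 1310 to 1426 in control libraries. Lyz2, the most abundant of them, averaged 843 ± 109 in double knockout libraries and 834 ± 40.9 in control libraries (SD, n = 3 each). Ptprc, the pan-leukocyte gene CD45, was at 30, 31 and 35 in double knockout libraries, against 15, 12 and 12 in control libraries (adjusted p = 0.00910), and Cx3cr1 had a log2 fold change of 0.78 (adjusted p = 0.0210). Both calls were lost without double knockout 3 or control 3, and that of Cx3cr1 also without double knockout 2 or control 1, with adjusted p up to 0.0655 for Ptprc and 0.139 for Cx3cr1. The Cx3cr1 call was also lost without the robust moderation (0.113). Of 6 megakaryocyte and platelet markers 0 passed, with sums of 987, 564 and 1287 in double knockout libraries and 543 to 683 in control libraries. Double knockout 2 was thus the lowest of its genotype in this sum, as it was for Tal1. All 6 markers lay above 0, with a median log2 fold change of 0.68. The 2 most abundant of them, the integrin Itga2b and the chemokine Pf4, each had a log2 fold change of 0.49 (adjusted p = 0.352 and 0.418). Of 11 erythroid markers 0 passed, with sums of 119189 to 167620 in double knockout libraries and 56267 to 156528 in control libraries. All 11 lay above 0, with a median log2 fold change of 0.54. The most abundant were the globins Hbb-y (log2 fold change 0.58, adjusted p = 0.564) and Hba-a1 (0.50, adjusted p = 0.642), and reads of Hba-a1 are shared with a near-identical copy. None of these markers was at 0 in all 6 libraries. Their part in the Fli1 and Tal1 values was not tested.

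The SOXF factors, which act redundantly in vascular development, were uneven. Sox17, linked to arterial and endocardial endothelium, was at 59, 88 and 75 in double knockout libraries, against 54, 48 and 43 in control libraries. The genotypes did not overlap, and the log2 fold change of 0.59 ± 0.20 (SE) had an adjusted p of 0.0996. Sox7 averaged 673 ± 54.6 in double knockout libraries and 652 ± 44.2 in control libraries (SD, n = 3 each; limma adjusted p = 0.836). Sox18 averaged 262 ± 18.0 in double knockout libraries and 267 ± 5.51 in control libraries (SD, n = 3 each; limma adjusted p = 0.925). No test of the difference between the 3 factors was made.

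Klf2, a factor induced by blood flow, and Nfatc1, the endocardial factor of valve formation, lay lower without passing. Klf2 was at 437, 449 and 382 in double knockout libraries, against 472, 516 and 528 in control libraries, so the genotypes did not overlap. Its log2 fold change was -0.26 ± 0.10 (SE, adjusted p = 0.163), and -0.12 (adjusted p = 0.421) after the GC and length trend was taken out. Klf2 had the highest GC content of the members, 61.6%. Nfatc1 was at 1105, 1099 and 974 in double knockout libraries, against 1175, 1190 and 1081 in control libraries (log2 fold change -0.12, adjusted p = 0.501).

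Without overlap between genotypes were 6 of the 33 members, 5 higher and 1 lower. This was 18.2% of them, beside 21.7% of all genes tested (11.1% higher and 10.6% lower) and 32.3% of protein-coding genes in the members' range of means. The share was thus no greater than the background.

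The members also differed between libraries of 1 genotype. Summed over the 33 members, normalised counts were 63232, 70107 and 64042 in double knockout libraries, against 67322, 65873 and 59765 in control libraries, a mean of 65794 ± 3757 against 64320.0 ± 4011 (SD, n = 3 each). The sums overlapped, and double knockout 2 was the highest and control 3 the lowest. Double knockout 2 was the highest library of its genotype in 25 members, and control 3 the lowest of its genotype in 25 members. The median log2 deviation from a gene's mean was -0.03, 0.15 and 0.00 in double knockout libraries 1 to 3, against 0.02, 0.01 and -0.14 in control libraries 1 to 3. Fibroblast and mesenchyme markers, of which 0 of 9 passed, were also highest in double knockout 2, with sums of 25599, 39148 and 19686 in double knockout libraries, against 25291, 29980 and 21486 in control libraries. The most abundant of them were the collagens Col3a1 (log2 fold change 0.25, adjusted p = 0.643) and Col1a2 (-0.14, adjusted p = 0.815). Their part in the member values was not tested. Without double knockout 2, 17 members lay above 0 with a median of 0.02, and without control 3, 18 did with a median of 0.02.

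**Figure D4:**
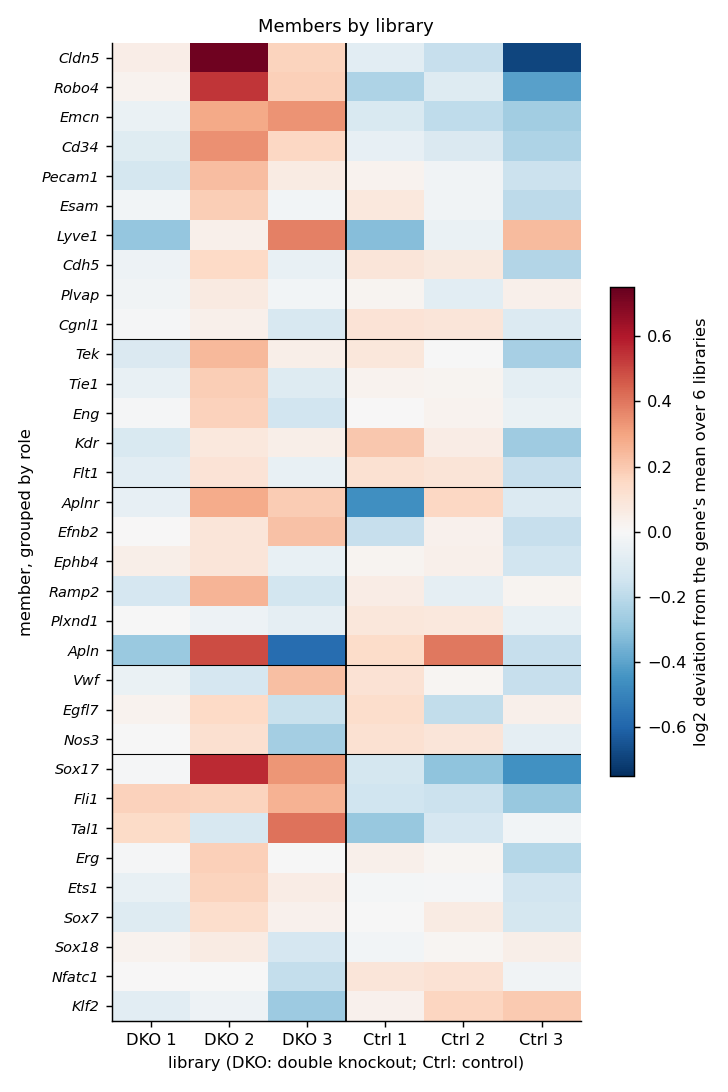
Log2 deviation of each member from its mean over the 6 libraries, by library, with double knockout (DKO) libraries left of the line and control (Ctrl) libraries right of it, and members grouped by role. DKO 2 is mostly above and Ctrl 3 mostly below the mean, while Fli1 is high in all 3 DKO libraries.

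Fold changes of the members varied with base composition. Over 11905 protein-coding genes, the log2 deviations of a library correlated with GC content at a Spearman's rho of 0.13, -0.18 and -0.59 in double knockout libraries 1 to 3, against 0.28, 0.22 and 0.40 in control libraries 1 to 3. Across the 33 members, which share these libraries, rho between log2 fold change and GC content was -0.47, and -0.09 once each library's trend with GC content and length was removed. With the trend removed the members' median log2 fold change was 0.13, beside 0.03 over all genes, 28 members lay above 0, and Robo4 passed along with Emcn and Fli1. The correlation with GC content was greater in each control library than in any double knockout library, so for Emcn, Fli1 and Klf2 the trend and the genotype cannot be told apart.

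**Figure D5:**
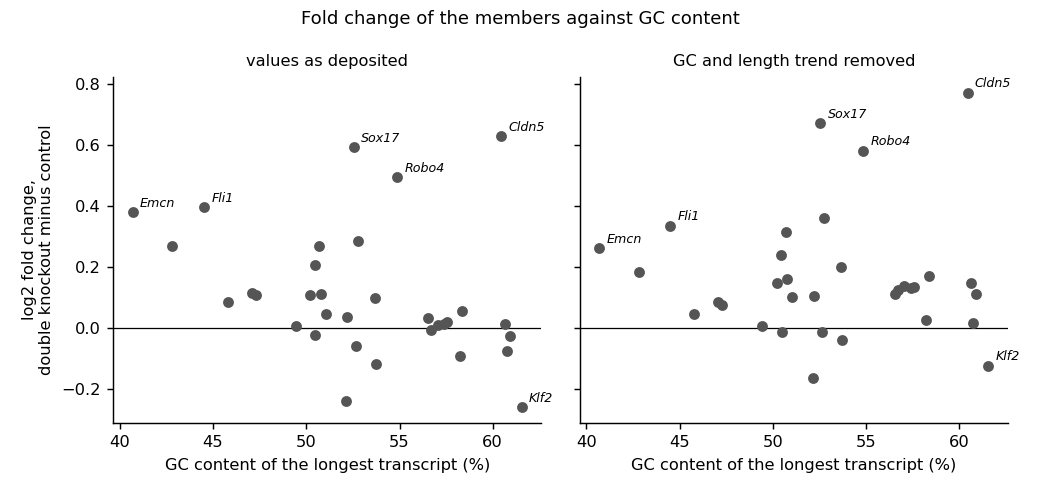
Log2 fold change (double knockout minus control) of the 33 members against the GC content of the longest transcript, as deposited (left) and with each library's GC and length trend removed (right). GC-poor Emcn and Fli1 move toward 0 and GC-rich Cldn5 and Klf2 move up when the trend is removed.

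Other endothelial genes, 33 in a second list, behaved in mixed ways: 3 rose and 2 fell, beside 2.31% and 2.55% of all genes tested. Their median log2 fold change was 0.14, and the genotypes did not overlap for 12 of them, 9 higher and 3 lower, beside 21.7% of all genes. Among protein-coding genes in the members' range of means, 8.25% were called and 32.3% did not overlap. Cd36, a fatty acid transporter of capillary endothelium and cardiomyocytes, was at 1244, 1486 and 1471 in double knockout libraries, against 892, 878 and 831 in control libraries (log2 fold change 0.69, adjusted p = 0.000113). Adgrl4, an adhesion receptor of endothelial cells, was at 308, 476 and 372 in double knockout libraries, against 262, 228 and 211 in control libraries (log2 fold change 0.70, adjusted p = 0.00710). Both rose, with no overlap between genotypes. Podxl, podocalyxin, a sialomucin like Cd34, fell to 3115, 3213 and 2870 in double knockout libraries, against 3792, 4112 and 4013 in control libraries (log2 fold change -0.37, adjusted p = 0.0122). Podxl and Cd34 thus lay on opposite sides of 0, only Podxl past the threshold. Named after their values were seen, the other genes of the list that passed were Mcam, an adhesion molecule of endothelium and mural cells, which rose by a log2 fold change of 0.36 (adjusted p = 0.0395), and Car4, a carbonic anhydrase of capillaries, which fell by 0.91 on the log2 scale (adjusted p = 0.0256). The Cd36 call held with each library left out. The Adgrl4 call was lost without double knockout 3 (adjusted p = 0.0581) or control 3 (0.0655), and the Podxl call without double knockout 3 (0.0762), control 1 (0.0638) or control 3 (0.0867). The Mcam call held only without control 2, and the Car4 call only without double knockout 1 or control 2, among libraries left out singly, with adjusted p up to 0.247 for Mcam and 0.143 for Car4 otherwise. Without the robust moderation the adjusted p was 0.102 for Adgrl4, 0.0535 for Podxl, 0.156 for Mcam and 0.137 for Car4. The Car4 call was also lost after the GC and length trend was taken out (0.0616).

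Of 23 endocardial and cushion genes 1 rose and 1 fell, beside 2.31% and 2.55% of all genes tested, with a median of 0.06. In 8 of the 23 the unadjusted limma p was under 0.05, beside 18.7% of all genes tested. Among protein-coding genes in the members' range of means 8.25% were called, and the share of those genes at an unadjusted p was not taken. Nrg1, the endocardial ligand of ErbB receptors on cardiomyocytes, was at 408, 477 and 380 in double knockout libraries, against 305, 297 and 196 in control libraries (log2 fold change 0.68, adjusted p = 0.0200). Its call was lost without double knockout 1 (adjusted p = 0.0584), 2 (0.0588) or 3 (0.0545) or control 3 (0.0823), after the GC and length trend was taken out (0.0841), and without the robust moderation (0.124). Jag1, a Notch ligand, fell to 672, 504 and 611 in double knockout libraries, against 813, 976 and 957 in control libraries (log2 fold change -0.62, adjusted p = 0.00167). The Jag1 call held with each library left out and was lost without the robust moderation (0.0661). Of 12 venous and lymphatic genes 0 passed and 6 had an unadjusted limma p under 0.05, beside 18.7% of all genes tested. The most abundant of them was the member Ephb4. The next, Prox1, a factor of lymphatic endothelium that cardiomyocytes also express, was at 1968, 1534 and 2321 in double knockout libraries, against 1426, 1672 and 1427 in control libraries (adjusted p = 0.159).

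Ligands and partners of the member receptors were 34 genes from other cells or the endothelium itself. Of these 1 rose and 3 fell, beside 2.31% and 2.55% of all genes tested. Their median was -0.03, with 17 above 0 and 17 below. The genotypes did not overlap for 8 that were higher and 10 that were lower, beside 11.1% and 10.6% of all genes tested. In 21 of the 34 the unadjusted limma p was under 0.05, beside 18.7% of all genes tested. Among protein-coding genes in the members' range of means the background was greater, with 8.25% called and 32.3% not overlapping. The share of those genes at an unadjusted p was not taken. Vegfb, a ligand of Flt1 made by cardiomyocytes, fell to 1223, 960 and 1052 in double knockout libraries, against 1603, 1696 and 1856 in control libraries (log2 fold change -0.68, adjusted p = 0.000265). Slit3, a ligand of Robo receptors, fell to 506, 511 and 513 in double knockout libraries, against 763, 834 and 804 in control libraries (log2 fold change -0.65, adjusted p = 0.000157). Ramp1, which pairs with Calcrl to form the CGRP receptor, fell to 189, 200 and 197 in double knockout libraries, against 354, 285 and 357 in control libraries (log2 fold change -0.76, adjusted p = 0.000756). These 3 calls held with each library left out in turn. The gene that rose, Slit2, another Robo ligand, was named after its values were seen and was at 6318 to 9009 in double knockout libraries, against at most 6193 in control libraries (log2 fold change 0.44, adjusted p = 0.0437). Its call held only without double knockout 2 among libraries left out singly (adjusted p otherwise up to 0.216), and it was lost with a filter at a mean of 10 (0.0511), without the robust moderation (0.164) and with the female or male pattern as a covariate (0.0531). The members Flt1, Robo4 and Ramp2 did not pass.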

How the data were processed

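Embryonic heart tissue was sequenced as polyA RNA in 3 double knockout and 3 control libraries. Per the submitters' processing notes the mm10 build was used and the tools were DESeq, DESeq2, featureCounts 1.5.0, STAR 2.4.2a and Trimmomatic, with no roles given. Annotation, strand setting and filters are not stated there. The deposited values are a score: the authors appear to have multiplied counts by a factor for each library and rounded the product, since 3 of the 6 columns lack some whole numbers below 400. Scales estimated from this put depth at 18760280 to 21993982 reads. Reads per gene are not recovered exactly, so no count model was used.

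The 26747 genes with a mean of at least 1 in either genotype entered a limma 3.58.1 fit (R 4.3.3) of log2(value + 1), with intensity trend and robust moderation. Tests were two-sided, with Benjamini-Hochberg adjustment and a threshold of 0.05. Folds on this scale understate changes of low genes. Intervals are 95% intervals of the fitted coefficient. Trends with GC content and length were fitted per library on 11905 protein-coding genes whose mean reached 50. GC content and length for these trends were those of the longest transcript, and levels per kilobase used the length of merged exons. Both come from GENCODE M21 (GRCm38, the assembly of mm10), which held 99.3% of identifiers. Motifs were searched on both strands of RefSeq windows (GRCm38.p6).

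All members are described. From each other list the 3 genes with the lowest adjusted p past the threshold are named, or else the 2 with the highest mean. The result of 1 marker list is not reported here. Members and lists were chosen with earlier results of these data known, so their counts are descriptions. Alternatives covered the pseudocount, filter, moderation, scaling, weights, covariates and each library left out. Libraries may share an animal or litter as far as the sources state, and a p-value then covers only the variation among these libraries, which may be technical.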

Additional observations from a re-analysis of the deposited data

How the results depend on the processing

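Under every alternative run, 0 members fell, and the members' median log2 fold change stayed between 0.02 and 0.13. The number of members that rose was 2 in the fit reported. It was 0 without the robust option and without both libraries numbered 3. It was 1 with the replicate block (Emcn) and with the female or male pattern as a covariate (Emcn). It was 3 without a filter on low values and with the GC and length trend removed (Emcn, Fli1 and Robo4 in both). With 1 library left out it ran between 0 and 2, being 2 without double knockout 1 (Cd34 and Emcn), 1 without double knockout 2 (Tal1) and 0 without double knockout 3 or any single control. Neither call therefore held through all settings. Of 627 combinations of a member and an alternative, 602 kept the direction of the call and its side of the threshold or stayed uncalled, 19 lost a call, all of Emcn or Fli1, 6 gained one, and 0 reversed a call. Members that stayed uncalled could change sign, as Kdr did, with log2 fold changes between -0.14 and 0.11. Members above 0 numbered 17 without double knockout 2 and 28 with the GC and length trend removed.

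Among all genes, 618 were higher and 681 lower in double knockout hearts. The higher count was 963 without a filter on low values. Without the robust option 144 were higher and 206 lower, and without both libraries numbered 3, 14 were higher and 24 lower. With 1 library left out the counts ran between 186 and 608 for higher genes and between 234 and 739 for lower genes, lowest without control 3. The numbers gave no sign of pairing the libraries: same-numbered libraries had deviations from their group means with Pearson's r of -0.14, -0.04 and -0.08 across 13253 genes, and the replicate block gave 1355 calls in place of 1299. Each library's GC trend was left in these deviations, so they cannot settle the pairing. A litter or batch shared by same-numbered libraries was not tested. Combined with the GC and length trend removed, the block called Robo4 and Tal1 and no longer Emcn (adjusted p = 0.0689) or Fli1 (0.0729), and the block alone did not call Fli1 (0.0696). Of the other lists, 0 genes named as called passed without both libraries numbered 3. The cause of these changes was not tested. Precision is limited by 3 libraries a genotype and, for Apln, Cldn5, Sox17, Lyve1 and Aplnr, by normalised counts under 100.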

Other observations

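Markers of other cell types of the heart were read beside the members. Of 8 epicardial markers 1 rose and 1 fell, beside 2.31% and 2.55% of all genes tested. Krt19, a keratin of epicardium and mesothelium, rose by a log2 fold change of 0.56 (adjusted p = 0.000859) in a call that held with each library left out. Lrrn4, another mesothelial gene, fell by 0.39 on the log2 scale (adjusted p = 0.0309), in a call that held only without double knockout 2 among libraries left out singly (adjusted p otherwise up to 0.169). Of 7 mural markers 0 passed, with 3 above 0 and 4 below. Their sums were 7881 to 10499 in double knockout libraries and 8816 to 9036 in control libraries. The most abundant were Abcc9 (log2 fold change 0.27, adjusted p = 0.367) and Cspg4 (-0.25, adjusted p = 0.493). Abcc9 alone was at 5447, 3887 and 6195 in double knockout libraries, against 4375, 3964 and 4350 in control libraries. It thus weighed heavily in the sums, and the cell type its reads came from was not tested. Of 13 cardiomyocyte markers 0 rose and 2 fell, beside the same shares of all genes. Myh6, the atrial and adult ventricular myosin heavy chain, fell to 90131, 75234 and 73150 in double knockout libraries, against 132314, 149354 and 137865 in control libraries (log2 fold change -0.82, adjusted p = 1.68e-05). Myl7, the atrial myosin light chain, fell by 0.74 on the log2 scale (adjusted p = 0.00226). Both calls held with each library left out, and that of Myl7 was lost without the robust moderation (0.0669), as was that of Lrrn4 (0.130).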
